A study of Mus musculus with 6 samples.

Results

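The interferon response genes described here are 37 genes that cells switch on, or keep ready, when they sense interferon or foreign nucleic acid. They were chosen by name, and their probes were taken by matching the transcript accession of each array probe to RefSeq. Of the 37 genes, 34 had at least 1 probe and 33 were bright enough to be tested, among 21473 genes tested in all. Oas1b, Mx1 and Mx2 had no probe matched in this way and were not analysed here. Irf7 had a probe that was too dim to be tested.

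RNA came from a mouse podocyte line, the epithelial cell of the kidney filter, immortalised with a SV40 T antigen that is temperature-sensitive. Expansion was at 33 °C, and differentiation took 10 days at 37 °C. All groups carried a lentiviral pGIPZ short hairpin RNA vector: the shControl group a scrambled hairpin, and the groups shTug1 clone 2 and shTug1 clone 3 one directed at Tug1, a long noncoding RNA. Each group had 2 arrays of cultured cells described as biological replicates, so each shTug1 group is 1 clone and differences between clones include whatever sets those 2 clones apart. The comparisons ask how interferon response genes differ between cells with and without the Tug1 hairpin, and between the clones.

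Interferons bind receptors on the cell surface, and the receptor-bound kinases of the JAK family then phosphorylate STAT proteins. A complex that contains STAT2 and IRF9 binds the interferon-stimulated response element in the promoters of target genes, while the interferon-gamma activated sequence is a second element read by this pathway. The induced proteins block viral translation, degrade or edit RNA, present antigen and, through USP18 and the SOCS proteins, turn the signal down again. Many of these genes also have a low level without added interferon, kept up by small amounts of interferon and by unphosphorylated STAT complexes.

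The promoter sequences below show letters that match such elements, for 5 genes that were lower and 3 that did not pass on the arrays labelled shTug1. They are RefSeq promoter sequences of the build GRCm38.p6, 5′ to 3′ on the strand of the gene. Capitals mark matches to the core of the interferon-stimulated response element (GAAA, 2 bases of any kind, GAAA), or to TTCNNNGAA, the interferon-gamma activated sequence, searched on both strands in the 250 bases before the gene start. Overlapping matches are shown as 1 run of capitals.
Isg15: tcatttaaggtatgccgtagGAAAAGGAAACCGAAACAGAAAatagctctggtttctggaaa
Ifit1: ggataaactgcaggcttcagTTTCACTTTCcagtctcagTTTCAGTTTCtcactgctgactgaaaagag
Ifit3: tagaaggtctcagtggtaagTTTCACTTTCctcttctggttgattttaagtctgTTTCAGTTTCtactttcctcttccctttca
Oas1a: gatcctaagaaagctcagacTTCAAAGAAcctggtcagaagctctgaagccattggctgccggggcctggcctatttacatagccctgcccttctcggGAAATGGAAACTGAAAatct
Irf1: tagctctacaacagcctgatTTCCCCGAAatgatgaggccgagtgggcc
Oas3: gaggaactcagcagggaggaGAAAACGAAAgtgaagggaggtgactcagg
Bst2: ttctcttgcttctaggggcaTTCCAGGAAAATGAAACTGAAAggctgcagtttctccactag
Cxcl10: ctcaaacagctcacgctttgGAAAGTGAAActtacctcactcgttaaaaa

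The Isg15 stretch lies at chr4:156200855-156200916 on the minus strand, and its 3 overlapping response elements start 78, 72 and 66 bases before the gene start. That of Ifit1 lies at chr19:34640765-34640833 and that of Ifit3 at chr19:34583353-34583436, both on the plus strand. The Oas1a stretch (chr5:120907526-120907643, minus strand) holds both kinds of element, and the Irf1 stretch (chr11:53769904-53769952, plus strand) only the interferon-gamma activated sequence. Oas3 (chr5:120777705-120777754), Bst2 (chr8:71537567-71537628) and Cxcl10 (chr5:92349073-92349122), all on the minus strand, carry the same letters. The response element core was in the windows of 11 of the 28 members with a promoter sequence, 11 of 34 windows, against 2.977% of all 32851 windows. The interferon-gamma sequence was in the windows of 4 members, against 7.02% of all windows. The letters are a description of the windows and not evidence of binding. Among the members shown, matching letters stood both before genes that were lower and before genes that were not.

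After scaling to each array's 75th percentile, most members were lower on the arrays labelled shTug1 than in shControl, as were most genes tested. Numerically, 8 of 33 members and 5607 of all 21473 genes were higher. Of the 33 tested members, 17 fell (30.4% of all genes tested fell), 4 rose (10.2% of all genes rose, and 40.6% changed in either direction) and 12 did not pass, in limma with Benjamini-Hochberg adjustment over all genes at a threshold of 0.05. The falls included the signalling factors Irf9 and Stat2, the ubiquitin-like modifier Isg15 and its protease Usp18, and most oligoadenylate synthetase genes. The rises were Tap1, Ifit2, Ifi35 and Xaf1. Tap1 and Ifit2 passed the filter on dim probes only through the groups labelled shTug1, where they were higher. Neither was tested where a probe had to be well above background on all 6 arrays. The median log2 fold change of the members, clones averaged against control, was −1.08, and that of all genes tested was −0.64. Relative to the median gene the members thus lay at −0.446, with 22 of 33 below it.

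**Figure D1:**
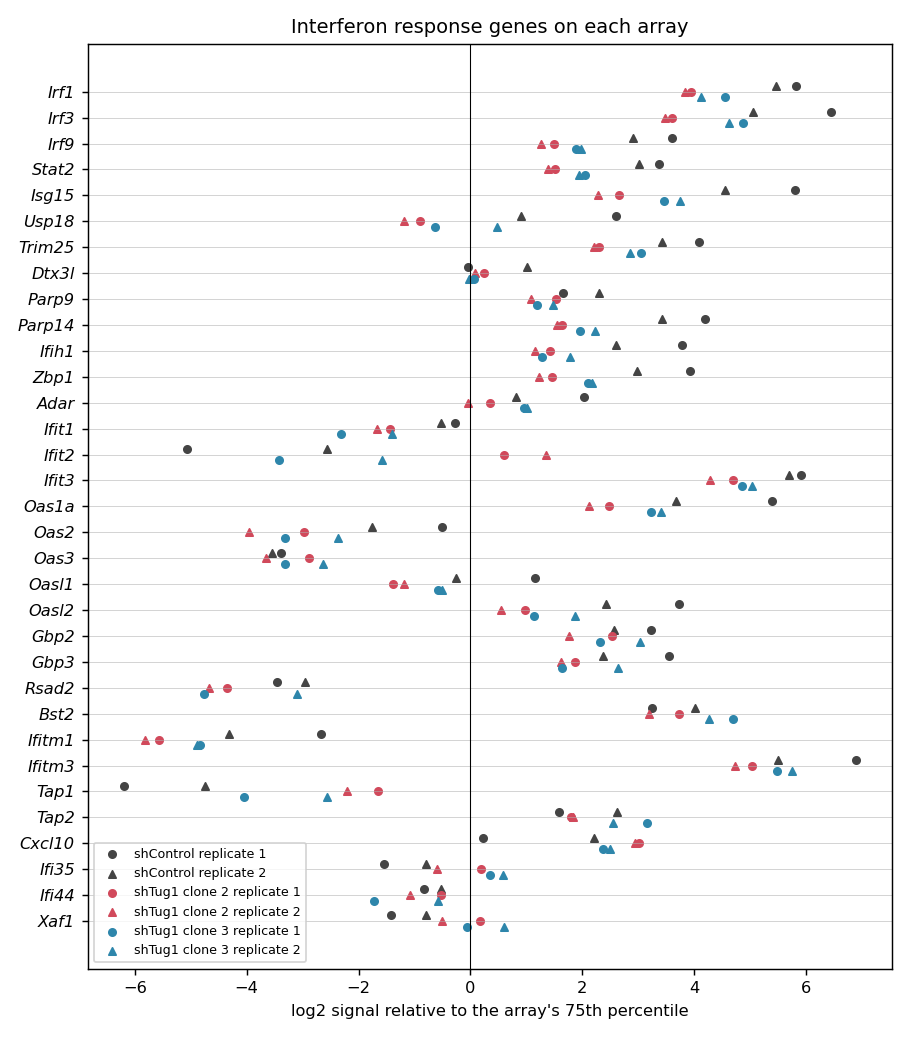
Log2 signal of the 33 tested members on each of the 6 arrays, relative to the 75th percentile of that array (x axis), with 1 row per gene. Dark grey symbols are shControl, red shTug1 clone 2 and blue shTug1 clone 3, with circles for replicate 1 and triangles for replicate 2. Isg15 lies at 5.81 and 4.55 in control and between 2.28 and 3.76 on the other arrays, while Tap1 lies lowest in control.

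The calls differed between scalings. The members' median relative to all genes was −0.446 both with and without scaling, but by construction, since a constant per array cannot change it. The 75th percentile of the processed signal was 324.3 and 363.3 on the control arrays and between 569.2 and 1055 on the arrays labelled shTug1, so a signal equal on all arrays is lower there after scaling. On the deposited signal without any scaling, 15 of the 17 members called lower were still numerically lower, from −1.04 to 0.19 on the log2 scale, but 0 of 33 passed downward (limma, adjusted; Trim25 and Ifit3 turned upward) and 8 passed upward (29.2% of all genes). With normexp background correction 19 members fell, a share below that of all genes (59.7%), and 4 rose (9.17%). After quantile normalization 10 members fell (14.6% of all genes) and 1 rose (11.5%), and with the deposited series values 11 of 30 fell (20.5%) and 3 rose (10.9%). The 10 members that fell after quantile normalization were Irf9, Stat2, Isg15, Usp18, Parp14, Ifih1, Zbp1, Ifit1, Oas2 and Oasl2. The member that rose was Tap1, while Ifit2 (adjusted p = 0.0536), Ifi35 (0.0514) and Xaf1 (0.0618) did not pass there.

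Both control arrays were scanned together and all 4 arrays labelled shTug1 together in another scan, so that in every comparison with control the hairpin and the scan cannot be told apart. shControl replicate 1 stood apart on the first principal component, at −175.2, against −56.13 for shControl replicate 2 and 5.538 to 103.8 for the others. Tug1 itself did not pass as lower, with −2.88 and −2.49 in control, −1.86 and −1.88 on the clone 2 arrays and −3.10 and −3.23 on those of clone 3 (log2 fold change of the clones' mean 0.16, SE 0.29, adjusted p = 0.65). These values come from 1 of 3 Tug1 probes, the brightest kept. On that probe Tug1 was higher than control on both clone 2 arrays, which goes against that label, so the groups are named by their labels throughout. With normexp correction the change of the clones' mean was −0.27. Over the 15 alternative settings it ranged from −0.27 to 1.44, and in 2 of them Tug1 passed as higher on the arrays labelled shTug1. Of the podocyte markers, Nphs1, Wt1 and Synpo were well above background on all 6 arrays, Podxl on 1 and Tcf21 on 1. Of the 9 podocyte markers tested, 5 were lower on the arrays labelled shTug1 (30.4% of all genes), among them Magi2 (−2.13) and Lmx1b (−1.65). None was higher (10.2% of all genes), and their median was −1.15.

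The number of calls also rested on single arrays. Without shControl replicate 1, 10 members fell (15.9% of all genes) and 0 rose (7.63%): Trim25, Usp18, Ifit1, Ifit3, Oas1a, Oas2, Oasl1 and Oasl2 no longer passed. Without shControl replicate 2, 20 fell (51.5%) and 5 rose (15.1%). Without shTug1 clone 3 replicate 1 the count of falls was 1 (3.09%) and of rises 2 (4.06%), and without shTug1 clone 3 replicate 2 both were 0 (0.508% and 1.09% of all genes), and the related genes named below did not pass without that array either. Without shTug1 clone 2 replicate 1 there were 14 falls (18.8%) and 2 rises (8.5%). The members' median relative to all genes stayed between −0.33 and −0.665 when any 1 array was left out.

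**Figure D2:**
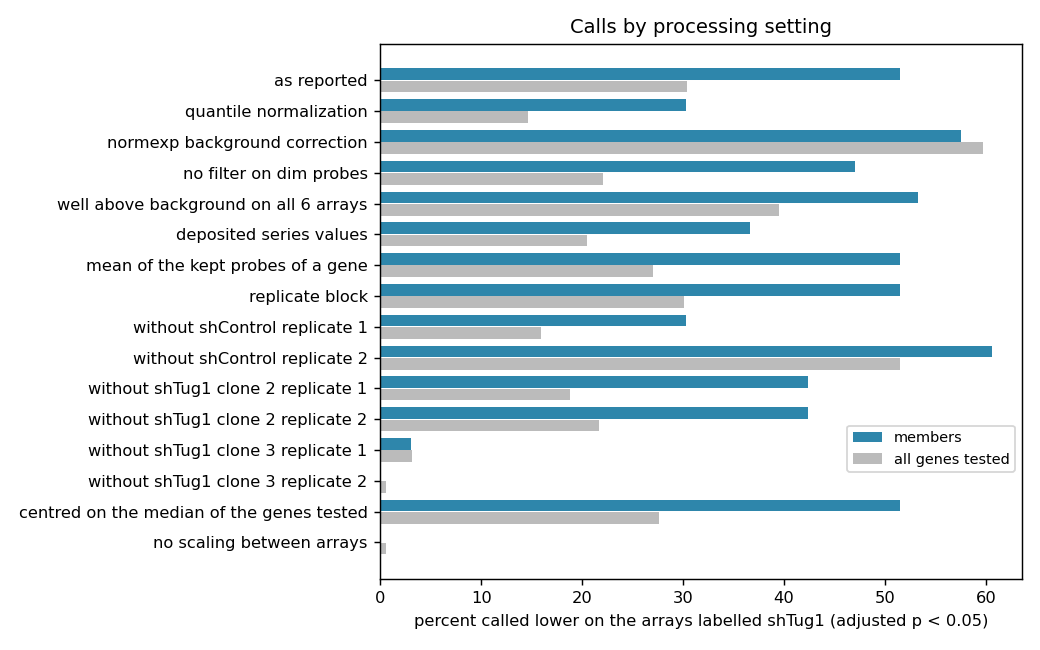
Percent of the members (blue) and of all genes tested (grey) called lower on the arrays labelled shTug1 at an adjusted p under 0.05 (x axis), for the reported fit and each alternative (rows). The share of all genes is 30.4% in the reported fit and 59.7% with normexp correction, where it exceeds that of the members, and both shares are close to 0 without scaling or without either shTug1 clone 3 array.

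Level and change were not independent across the array. Of the 8454 genes with a mean signal above the 75th percentile, 42.5% fell and 7.85% rose, with a median log2 fold change of −0.847. Of the 13019 dimmer genes 22.6% fell and 11.7% rose, with a median of −0.535. This split was chosen after the data were seen. Of the 22 members above the 75th percentile, 13 fell and 0 rose, and their median was −1.31. Of the 11 dimmer members, 4 fell and 4 rose, and their median was −0.303. The brighter members thus lay below genes of like level at the median. The median of the dimmer members includes Tap1 and Ifit2, which were kept only through arrays labelled shTug1, where they were higher. It therefore depends on the filter and is not set against that of the dimmer genes. All 4 members that rose were thus below the 75th percentile.

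**Figure D3:**
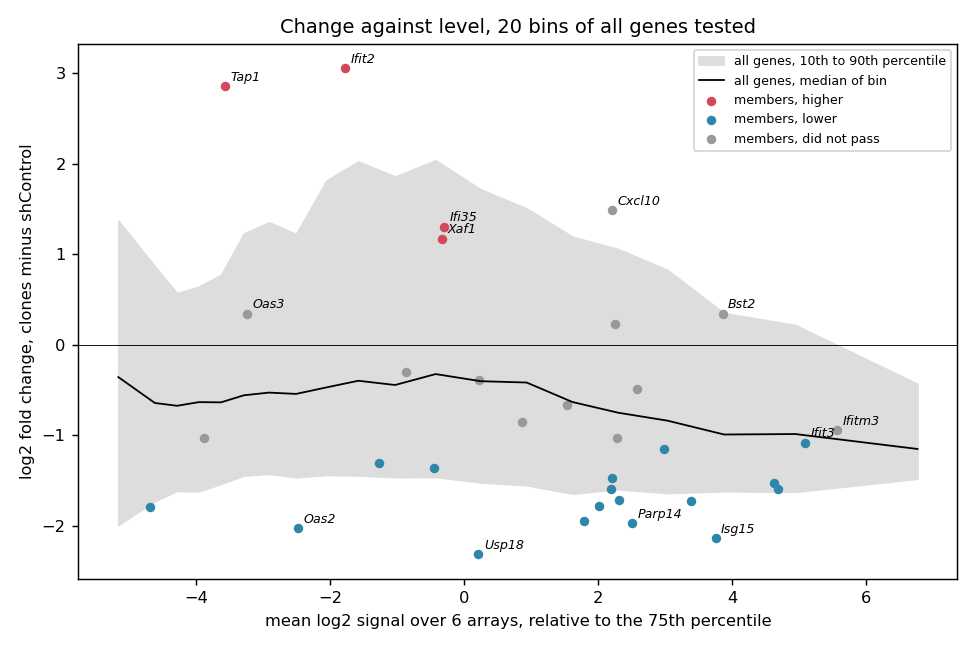
Log2 fold change of the clones' mean minus shControl (y axis) against mean log2 signal over the 6 arrays (x axis). The black line is the median of all genes in 20 bins of equal size, the grey band spans the 10th to 90th percentile, and coloured points are the 33 members by their call. Isg15 (−2.14) and Usp18 (−2.32) lie below the band and Ifit2 (3.05) above it, as does Tap1, plotted at its fitted value although only a bound of 3.23-fold is supported.

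Among the transcription factors, Irf1, Irf3, Irf9 and Stat2 fell. Stat2, a subunit of the interferon complex, gave 3.38 and 3.01 on the control arrays, 1.51 and 1.38 on those of clone 2 and 2.05 and 1.95 on those of clone 3, as log2 signal relative to the 75th percentile of the array. Both control arrays lay above all 4 others. Its log2 fold change was −1.47 (SE 0.29, adjusted p = 0.0147, 2.78-fold).

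Irf9, the DNA-binding subunit of the same complex, was at 3.61 and 2.91 in control, at 1.502 and 1.27 in clone 2 and at 1.89 and 1.99 in clone 3, again without overlap. Its log2 fold change was −1.60 (SE 0.32, adjusted p = 0.0153). Irf1, a factor driven by the interferon-gamma activated sequence shown above, gave 5.82 and 5.47 on the control arrays, 3.95 and 3.84 on those of clone 2 and 4.55 and 4.12 on those of clone 3. It fell by 1.53 on the log2 scale (SE 0.30, adjusted p = 0.0149), and a second, dimmer Irf1 probe gave −1.66. Irf3, the factor activated directly by nucleic acid sensing, was at 6.45 and 5.05 in control, at 3.61 and 3.49 in clone 2 and at 4.88 and 4.63 in clone 3. The control arrays of Irf3 differed by more than 1 log2 unit, and its log2 fold change of −1.60 (SE 0.42, adjusted p = 0.0242) was −0.90 without shControl replicate 1.

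Isg15 and Usp18 had the largest falls of all members together with Oas2. Isg15 encodes a ubiquitin-like protein that is coupled to other proteins, and Usp18 encodes the protease that removes it and also blocks the interferon receptor. Isg15 gave 5.81 and 4.55 on the control arrays, 2.66 and 2.28 on those of clone 2 and 3.47 and 3.76 on those of clone 3. All 4 arrays labelled shTug1 lay below both controls, with clone 2 lowest, and the log2 fold change was −2.14 (SE 0.41, adjusted p = 0.0138, 4.40-fold). A second Isg15 probe gave −1.18.

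Usp18 was at 2.61 and 0.91 in control, at −0.90 and −1.18 in clone 2 and at −0.63 and 0.48 in clone 3. The groups did not overlap, but the lower control array lay close to the higher clone 3 array. Its log2 fold change was −2.32 (SE 0.53, adjusted p = 0.0184, 4.98-fold), and −1.47 without shControl replicate 1, where it no longer passed. Trim25, the ubiquitin ligase that assists the RNA sensor RIG-I, read 4.08 and 3.42 in control and between 2.22 and 3.05 elsewhere, and its log2 fold change was −1.15 (SE 0.32, adjusted p = 0.0274).

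The PARP9 and DTX3L proteins form a complex of an ADP-ribosyltransferase and a ubiquitin ligase that boosts interferon signalling, and PARP14 is a related ADP-ribosyltransferase. Of the 3 genes, Parp14 fell. It gave 4.20 and 3.43 on the control arrays, 1.64 and 1.54 on those of clone 2 and 1.97 and 2.24 on those of clone 3, and its log2 fold change was −1.97 (SE 0.33, adjusted p = 0.0119, 3.92-fold). Parp14 had the smallest adjusted p of the 33 members in this comparison. Parp9 (−0.66, adjusted p = 0.137) and Dtx3l (−0.39, adjusted p = 0.391) did not pass, and Dtx3l read −0.04 and 1.01 in control, spanning its values of −0.03 to 0.24 elsewhere.

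Of the genes for nucleic acid sensing and editing, Ifih1 and Zbp1 fell. Ifih1, which encodes the double-stranded RNA sensor MDA5, was at 3.79 and 2.61 in control, at 1.43 and 1.15 in clone 2 and at 1.28 and 1.79 in clone 3 (log2 fold change −1.78, SE 0.40, adjusted p = 0.0179). Zbp1, the sensor of left-handed nucleic acid, gave 3.93 and 2.99 on the control arrays, 1.46 and 1.23 on those of clone 2 and 2.10 and 2.18 on those of clone 3 (−1.72, SE 0.35, adjusted p = 0.0155). A second Zbp1 probe gave −0.11. Adar, the RNA-editing deaminase, did not pass (−0.85, adjusted p = 0.115): its lower control array read 0.82, below both clone 3 arrays (0.96 and 1.02), although a second probe gave −1.37.

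The IFIT family, whose proteins bind foreign RNA and block its translation, split. Ifit3 was at 5.92 and 5.70 in control, at 4.70 and 4.29 in clone 2 and at 4.87 and 5.04 in clone 3, and fell by 1.08 (SE 0.30, adjusted p = 0.0274). After quantile normalization its log2 fold change was −0.23 and did not pass (adjusted p = 0.52). Ifit1 gave −0.28 and −0.52 on the control arrays, −1.44 and −1.67 on those of clone 2 and −2.32 and −1.40 on those of clone 3, without overlap, and fell by 1.31 (SE 0.35, adjusted p = 0.0256).

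Ifit2 went the other way. It read −5.07 and −2.56 in control, where 1 of 2 arrays was well above background, 0.60 and 1.36 on the clone 2 arrays and −3.43 and −1.58 on those of clone 3. Both clone 2 arrays lay above all others, while the clone 3 arrays overlapped with control. The log2 fold change of the clones' mean was 3.05 (SE 0.76, adjusted p = 0.0216), 1.79 without shControl replicate 1 (adjusted p = 0.142) and 4.31 without shControl replicate 2. Its promoter window held TTCNNNGAA and no match to the response element core.

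Among the oligoadenylate synthetases, which make the messenger that activates RNase L, and the synthetase-like genes, Oas1a, Oas2, Oasl1 and Oasl2 fell and Oas3 did not pass. Oas2 was at −0.51 and −1.76 in control, at −2.98 and −3.96 in clone 2 and at −3.32 and −2.38 in clone 3 (log2 fold change −2.02, SE 0.49, adjusted p = 0.0207, 4.07-fold). Oasl2 gave 3.73 and 2.42 on the control arrays, 0.97 and 0.54 on those of clone 2 and 1.15 and 1.87 on those of clone 3 (−1.94, SE 0.44, adjusted p = 0.0181). For both genes every array labelled shTug1 lay below both controls.

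Oas1a was at 5.40 and 3.67 in control, at 2.48 and 2.13 in clone 2 and at 3.23 and 3.41 in clone 3, and fell by 1.73 (SE 0.48, adjusted p = 0.0282). Its second probe gave 0.62, and the mean of the 2 probes did not pass (−0.55, adjusted p = 0.332). The mouse Oas1 genes are close copies of one another, so probes of this family may also bind related transcripts. Oasl1 read 1.16 and −0.27 in control and between −1.39 and −0.51 elsewhere (−1.36, SE 0.42, adjusted p = 0.0375). Oas3 lay between −3.66 and −2.64 on all 6 arrays with overlapping groups (0.34, adjusted p = 0.444).

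**Figure D4:**
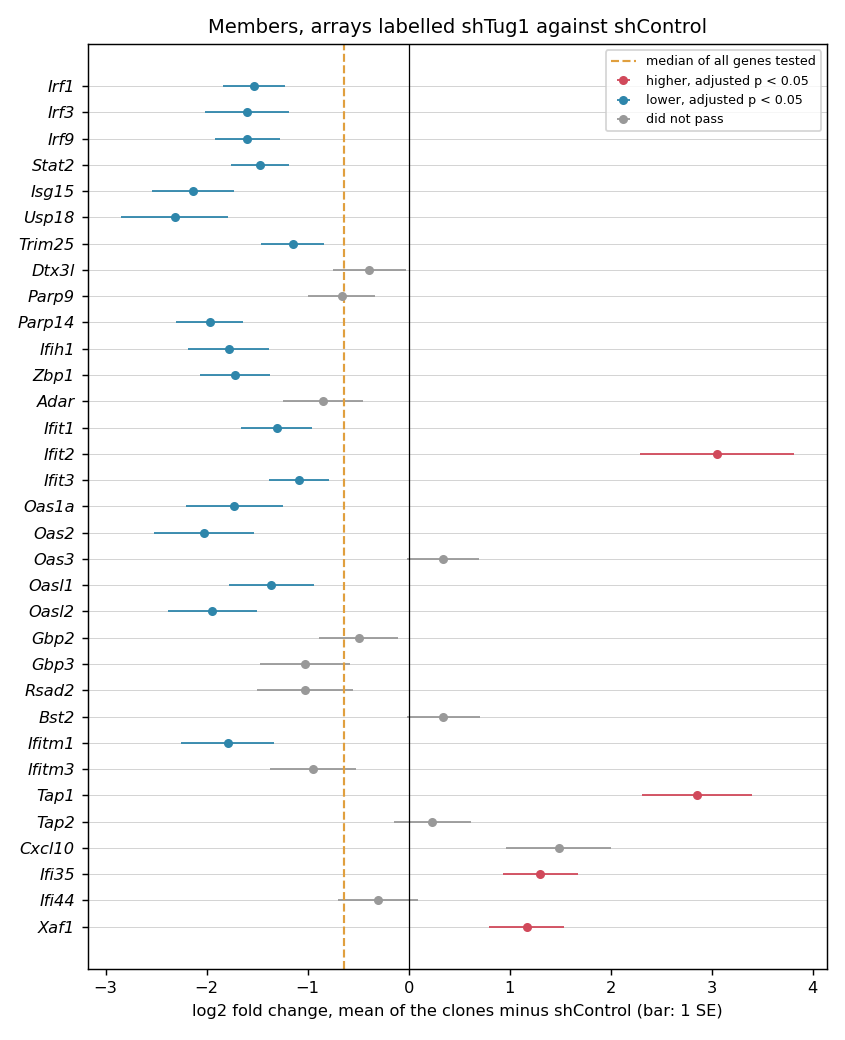
Log2 fold change of the clones' mean minus shControl for each tested member (x axis, bars 1 SE), coloured by call. The dashed line is the median of all genes tested, at −0.64. The 17 members in blue lie between −1.08 and −2.32, and the 4 in red between 1.17 and 3.05.

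Of the membrane-associated effectors, Ifitm1 fell and Rsad2, Bst2 and Ifitm3 did not pass. Ifitm1, an inhibitor of viral entry, gave −2.67 and −4.32 on the control arrays, −5.58 and −5.83 on those of clone 2 and −4.84 and −4.89 on those of clone 3 (adjusted p = 0.0231 for the clones' mean). It was not well above background on either clone 2 array, so that the fitted change of the clones' mean is not a measured size, and it was at least 4.52-fold lower in clone 2 than in control.

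Ifitm3, of the same family, was brighter than the 75th percentile on every array and read 6.90 and 5.50 in control against 4.73 to 5.75 elsewhere, with overlap (−0.95, adjusted p = 0.104). Rsad2, the antiviral enzyme viperin, read −3.45 and −2.95 in control and between −4.77 and −3.11 elsewhere (−1.03, adjusted p = 0.116). Bst2, the tetherin that holds virions at the cell surface, was at 3.24 and 4.02 in control, at 3.74 and 3.20 in clone 2 and at 4.69 and 4.26 in clone 3. Both clone 3 arrays of Bst2 lay above both controls, but neither the mean of the clones (0.34, adjusted p = 0.444) nor the difference between the clones (1.01, adjusted p = 0.383) passed. The guanylate-binding protein genes Gbp2 (−0.49, adjusted p = 0.317) and Gbp3 (−1.03, adjusted p = 0.0952) did not pass either, and both overlapped between the groups.

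The peptide transporter genes Tap1 and Tap2, whose proteins pair to load MHC class I molecules, differed from each other. Tap1 read −6.19 and −4.75 in control, where no array was well above background, −1.66 and −2.20 on the clone 2 arrays and −4.06 and −2.57 on those of clone 3. In limma it was higher over both clones, by at least 3.23-fold (adjusted p = 0.014), and in clone 2, by at least 5.22-fold (adjusted p = 0.0122). In clone 3 alone it did not pass (adjusted p = 0.067), with a bound of 2.00-fold. Its probe was kept for the test only through the clones' arrays, so its entry leaned on the direction found. Tap1 did not pass with normexp background correction (adjusted p = 0.161) or without shControl replicate 1 (adjusted p = 0.0658). Tap2 read 1.59 and 2.61 in control and 1.80 to 3.16 elsewhere, with overlap (0.23, adjusted p = 0.625).

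Cxcl10, the chemokine that attracts T cells, gave 0.23 and 2.22 on the control arrays, 3.01 and 2.94 on those of clone 2 and 2.38 and 2.49 on those of clone 3. All 4 arrays labelled shTug1 lay above both controls, but the control arrays stood far apart and the log2 fold change of 1.48 (SE 0.52) did not pass (adjusted p = 0.0532). It passed in clone 2 alone (1.75, adjusted p = 0.0471), in the fit blocked on replicate number (adjusted p = 0.0363) and without shControl replicate 2 (2.48, adjusted p = 0.0029), and stood at 0.49 without shControl replicate 1.

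The remaining induced genes are Ifi35, Xaf1 and Ifi44. Ifi35, which encodes a partner of NMI, was at −1.55 and −0.79 in control, at 0.19 and −0.60 in clone 2 and at 0.35 and 0.59 in clone 3, and rose by 1.30 (SE 0.37, adjusted p = 0.0302). Xaf1, an antagonist of the apoptosis inhibitor XIAP, gave −1.42 and −0.80 on the control arrays, 0.18 and −0.50 on those of clone 2 and −0.05 and 0.60 on those of clone 3, and rose by 1.17 (SE 0.37, adjusted p = 0.0409). For both genes the arrays labelled shTug1 lay above both controls.

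The 2 probes of Xaf1 disagreed. The second was at −1.82 and −2.56 in control, at −3.69 and −3.75 in clone 2 and at −3.99 and −3.06 in clone 3, a log2 fold change of −1.43. The mean of both probes was −0.13 and did not pass (adjusted p = 0.757). Ifi44 did not pass (−0.30, adjusted p = 0.542) and its groups overlapped.

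Between the arrays the members' groups often did not overlap: for 18 of 33 members all arrays labelled shTug1 lay below both controls (43.1% of all genes), and for 4 above (12.3%). The replicates of a group were less alike in control than in the clones. The median gap between the 2 control arrays was 1.02 log2 units over the members and 0.725 over all genes, against 0.315 and 0.221 on the clone 2 arrays and 0.292 and 0.237 on those of clone 3. shControl replicate 1 was the higher control array for 22 of 33 members. In clone 2 replicate 1 was the higher array for 30 of 33 members, and in clone 3 for 8.

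Taken alone, clone 2 differed from control in more members than clone 3, and both comparisons share the same control arrays. In clone 2, 17 members were lower (33.8% of all genes) and 3 higher (10.2%, with 44% of all genes called in either direction) than control, the highest being Ifit2 (4.79, adjusted p = 0.0127) and the lowest Usp18 (−2.80, adjusted p = 0.0161). In clone 3, 1 member was lower (4.68% of all genes) and 0 were higher (4.35%, with 9.03% called in either direction). Both clone 2 arrays lay below both controls for 23 members (61.6% of all genes), and both clone 3 arrays for 18 (47.8%). That member was Parp14 (−1.72, adjusted p = 0.039), while Isg15 (−1.57, adjusted p = 0.07) and Usp18 (−1.83, adjusted p = 0.0851) did not pass. At an unadjusted p under 0.05, 16 of 33 members and 7689 of all 21473 genes differed in clone 3. Without shControl replicate 2, clone 3 had 19 lower (40.2% of all genes) and 6 higher members (12.9%), and without either of its own arrays it had 0 lower (0% of all genes).

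The difference between the clones, which lies within 1 scan, was tested directly. In limma 0 members were higher (0.345% of all genes) and 0 lower (0.922%) in clone 3 than in clone 2, and 5 of 33 members and 2557 of all 21473 genes had an unadjusted p under 0.05. Numerically, 27 of 33 members and 15666 of all 21473 genes were higher in clone 3, with a median log2 difference of 0.55 against 0.38 for all genes. For 19 members both clone 3 arrays lay above both clone 2 arrays (58.9% of all genes), and for 4 below (16.4%). The widest difference was that of Ifit2 (−3.49, adjusted p = 0.145), which passed in clone 2's favour with normexp correction (−2.81, adjusted p = 0.00812), the replicate block (−3.49, adjusted p = 0.012), without shTug1 clone 2 replicate 1 (−3.86, adjusted p = 0.0442) and without scaling (−4.03, adjusted p = 0.0466). Its adjusted p ranged from 0.00812 to 0.812 over the settings.

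The wider pathway was described from lists drawn from general knowledge. Of the genes for interferons themselves, 5 of 10 were tested, 1 fell (30.4% of all genes tested fell) and 0 rose (10.2%). The list counts were not tested against these shares. Ifna2 fell (−1.75, adjusted p = 0.0358), measured on both control arrays and 2 of 4 others. Ifnb1, Ifne and Ifnk were not well above background on any array, and Ifng on 1 control array only. The interferon alpha genes are close copies, so their probes may not tell them apart.

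Of the receptor and kinase genes, 2 of 10 rose (10.2% of all genes) and 3 fell (30.4%). The shared interleukin 10 and interferon lambda receptor chain Il10rb (1.94, SE 0.30, adjusted p = 0.00979) and the interferon gamma receptor chain Ifngr2 (1.04, adjusted p = 0.0398) rose, while the kinase Jak2 (−1.68, adjusted p = 0.0118) and the partner chain Ifngr1 (−1.54, adjusted p = 0.0155) fell. Ifngr1 and Ifngr2, the chains of 1 receptor, thus moved in opposite directions in the averaged comparison. In the limma fit of each clone against control, Ifngr2 did not pass in clone 2 (0.65, adjusted p = 0.183) or clone 3 (1.43, adjusted p = 0.0545).

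Of the negative regulators, 2 of 10 rose (10.2% of all genes) and 3 fell (30.4%). The phosphatase gene Ptpn1 rose (4.14, SE 0.84, adjusted p = 0.0154), but only 1 of 2 control arrays measured it well above background, and it stood at 2.40 without shControl replicate 1. The SUMO ligase gene Pias4 passed upward (adjusted p = 0.0291), but neither control array measured it well above background and no fold is given. With normexp correction it passed in the other direction (adjusted p = 0.0223). The feedback inhibitor Socs3 (−1.57, adjusted p = 0.0165) and the phosphatase gene Ptpn2 (−1.07, adjusted p = 0.0267) fell, and Ptpn2 stood at 0.70 in the mean of its probes.

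Of the nucleic acid sensing genes, 2 of 17 rose (10.2% of all genes) and 4 fell (30.4%). In this list 13 genes lay above the median gene and 4 below it, and their median log2 fold change was 0.24. The sensor Tlr3 passed upward (adjusted p = 0.0163), but neither control array measured it well above background. It was higher by at least 1.91-fold in clone 2, no fold is given for the clones' mean, and it did not pass with normexp correction (adjusted p = 0.323). The adaptor Myd88 rose (1.36, adjusted p = 0.0194). The RIG-I-like receptor genes Dhx58 (−2.03, SE 0.44, adjusted p = 0.0173) and Ddx58 (−1.69, SE 0.32, adjusted p = 0.0138) fell, as did their family member Ifih1 above. In the mean of its probes Ddx58 did not pass (−0.63, adjusted p = 0.111), and without shControl replicate 1 Dhx58 did not (−1.43, adjusted p = 0.069).

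Of the 14 genes for MHC class I assembly, 1 rose (10.2% of all genes) and 5 fell (30.4%). The disulphide isomerase gene Pdia3 rose (2.72, adjusted p = 0.0131), and the class I transactivator Nlrc5 (−1.69, adjusted p = 0.0207) and the immunoproteasome subunit gene Psmb10 (−1.64, adjusted p = 0.018) fell. Of 36 further interferon-induced genes, 4 rose (10.2% of all genes) and 19 fell (30.4%), with a median of −1.31. The ISG15-activating enzyme gene Uba7 (−2.07, SE 0.38, adjusted p = 0.0133) and Ifi27l2a (−2.28, adjusted p = 0.0167) fell, whereas Ube2l6, which encodes the conjugating enzyme that receives ISG15 from UBA7, rose (1.41, adjusted p = 0.0217), as did Parp12 (1.86, adjusted p = 0.0143). Ube2l6 did not pass with normexp correction (0.34, adjusted p = 0.199), without shControl replicate 1 (0.97, adjusted p = 0.054) or without either shTug1 clone 3 array.

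**Figure D5:**
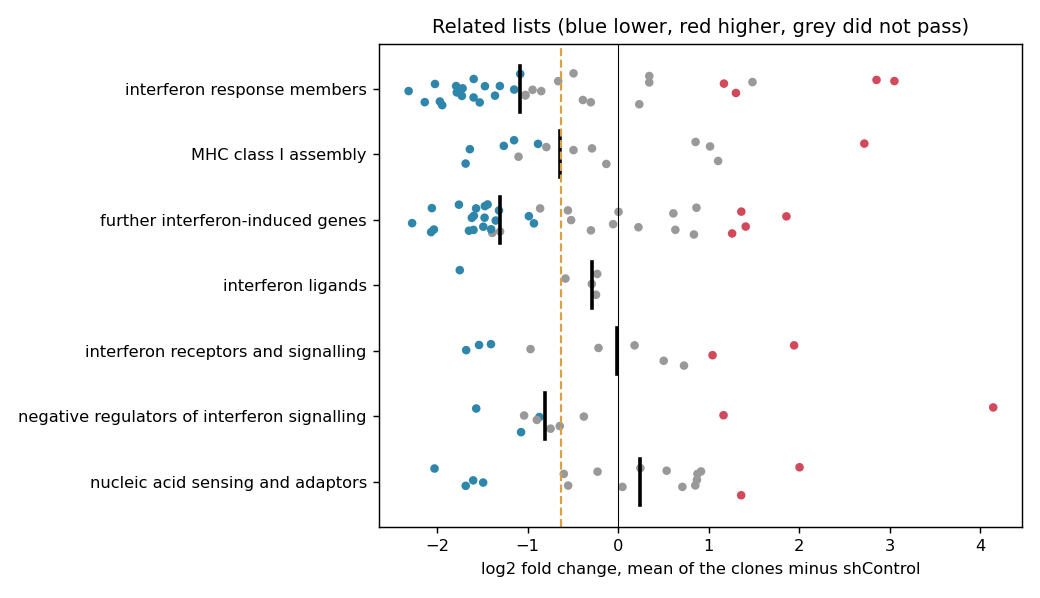
Log2 fold change of the clones' mean minus shControl (x axis) for every tested gene of the members and of the 6 related lists (rows), coloured by call, with a black bar at the median of the list. The dashed line is the median of all genes tested (−0.64). The members (−1.08) and the further interferon-induced genes (−1.31) have medians below it, and the sensing genes (0.24) above it.

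Relative to the 75th percentile of each array, the summed levels of the marker lists, podocyte markers included, were lower on the arrays labelled shTug1. That percentile was 324.3 and 363.3 in control and 569.2 to 1055 on the arrays labelled shTug1. The direction of these sums therefore depends on the scaling, and it need not hold on the unscaled signal. The summed level of 11 immune cell markers was 24.7 to 44.7 times the 75th percentile in control, 6.92 to 8.16 in clone 2 and 10.8 to 10.96 in clone 3, with 7 to 9 of the 11 well above background on each array. Csf1r (−2.94), Itgam (−2.04) and Cd74 (−1.72) fell and Cd14 (1.11) rose. Ptprc, the marker of blood cells in general, was dim (−5.21 to −4.17), well above background on no control array and on all 4 others, and Lyz2 and Fcgr3 were not on any array. The summed level of 8 endothelial markers was 1.67 to 2.73 in control, 1.07 to 1.102 in clone 2 and 1.31 to 1.48 in clone 3. That of 6 mesangial and stromal markers was 550.2 to 560.6 in control, 211.6 to 221.6 in clone 2 and 235.8 to 316.2 in clone 3. For 9 tubular and parietal markers it was 106.7 to 109.8, 34.4 to 36.2 and 31.3 to 54.2 in the same order, and for 11 podocyte markers 31.6 to 32.99, 18.198 to 18.237 and 11.01 to 16.4. In bulk RNA fewer cells of a type and less RNA per cell cannot be told apart, and the part of these markers in the members' values was not tested.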

How the data were processed

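The deposited scanner files of the 6 arrays (Agilent, 1 colour) hold an intensity for each spot, from Feature Extraction 11.0.1.1 according to the submitters' processing notes. Their processed signal has had background subtracted and spatial trends removed, per the file headers. A deposited table of the whole series holds log2 values of 19819 probes, whose normalization the sources used here do not give. The values analysed are log2 processed signal less the 75th percentile of the array over 43020 gene spots, without outlier spots and averaged over the spots of each of 39429 probes. A probe was kept (25558 were) if some group measured it well above background on both its arrays, and a gene was represented by its brightest kept probe. Tap1, Ifit2, Ptpn1, Pias4 and Tlr3 were kept only through arrays labelled shTug1, where they were higher, and Ifna2 only through control. Their calls in that direction are not independent of the filter. RefSeq accessions gave a symbol to 27234 probes, and the other 12195 stayed in the tests unnamed.

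The 3 group means were fitted with limma 3.58.1 in R 4.3.3, two-sided, on 3 residual degrees of freedom and a prior of 4.69. No exact test was used, since 4 against 2 arrays cannot give a p below 0.0667. The fit was also run on simulated data, with independent noise of the clone 3 spread on every array. The control replicates lay further apart (median gap 0.725 against 0.237 in clone 3), so that run does not vouch for the fit on these data. Every member is named, and from each related list the 2 largest rises and falls past the threshold. Where one side of a comparison never measured a probe well above background, the fold is a bound, set by the dimmest signal that was or by the probe's own if higher. Such a bound compares group means and makes no allowance for their spread. Members and lists were chosen with earlier results of these data known, and the split by level, median centring and the values without scaling after seeing the data. Normexp correction took median spot signals, the mean not being in the files used here. Same-numbered arrays did not deviate together (correlations −0.038, 0.106 and −0.0888), so the numbers were not taken to pair them. The other alternatives were quantile normalization, filters, probe choice, the replicate block and leaving out arrays. Each group has only 2 arrays, which limits precision, and the p-values measure the spread between these cultures. Some measured genes are not reported here.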

Additional observations from a re-analysis of the deposited data

Results flagged for a closer look

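Irf7, the factor that amplifies the interferon response, entered no comparison because in no group did both arrays measure its probe well above background. It stood clear of background on 1 array of clone 2 and 1 of clone 3, in all 2 of the 4 labelled shTug1, and on 0 of the 2 control arrays. It gave −4.59 and −4.96 on the control arrays, −4.05 and −5.23 on those of clone 2 and −5.35 and −4.48 on those of clone 3, so that the groups overlapped.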

How the results depend on the processing

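The counts of members called depended on the scaling, the filter and single arrays, and the causes were not tested. The share of all genes called the same way stands in brackets. For the clones averaged against control (17 lower, 4 higher), quantile normalization gave 10 lower (14.6%) and 1 higher (11.5%), the deposited series values 11 lower (20.5%), and no scaling 0 lower (0.554%) and 8 higher (29.2%). For clone 2 against control (17 lower, 3 higher), quantile normalization gave 11 lower (15.5%), the series values 1 higher (9.74%), the filter on all 6 arrays 1 higher (7.99%), and no scaling 0 lower (0.647%) and 7 higher (30.6%). For clone 3 against control (1 lower, 0 higher), normexp gave 12 lower (26%) and 3 higher (6.67%), the filter on all 6 arrays 11 lower (11.6%) and 2 higher (5.84%), no filter 0 lower (0.974%), the series values 2 lower (6.53%), the replicate block 1 higher (5.43%), and no scaling 0 lower (0.405%) and 6 higher (16.3%). Between the clones, normexp (1.53%), the replicate block (1.61%) and no scaling (2.7%) each called 1 member lower in clone 3, Ifit2. With 1 array left out, the averaged comparison had 0 to 20 lower and 0 to 5 higher, clone 2 had 11 to 19 lower and 2 to 4 higher, clone 3 had 0 to 19 lower and 0 to 6 higher, and 0 to 1 member was lower and 0 higher between the clones; a group left with 1 array is assumed to vary like the others.

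Single values also changed sign in the averaged comparison. Gbp2 stood at 0.078 after quantile normalization and 0.079 with the series values. With normexp, Oas3 was −0.46, Pias4 −0.68, Tlr3 −0.25 and Tug1 −0.27. In the mean of probes Xaf1 was −0.13 and Ptpn2 0.70. Without shControl replicate 1, Bst2 was −0.044, Tap2 −0.28 and Tug1 −0.029, and without shControl replicate 2 Dtx3l was 0.14. With any 1 array left out, Bst2 ranged from −0.044 to 0.73, Tap2 from −0.28 to 0.74, Tug1 from −0.029 to 0.36 and Dtx3l from −0.92 to 0.14. Without scaling, Trim25 was 0.12, Dtx3l 0.88, Parp9 0.61, Adar 0.42, Ifit3 0.19, Gbp2 0.78, Gbp3 0.25, Rsad2 0.25, Ifitm3 0.33, Ifi44 0.97 and Ptpn2 0.20, and in clone 2 alone Trim25 was 0.047, Ifit1 0.39 and Ifit3 0.23. The members' median relative to all genes stayed below 0 in every setting run, from −0.665 to −0.175. Without scaling, with median centring and with the replicate block it equals the reported value by construction, so those settings do not test it.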
